A study of Homo sapiens with 4 samples.

Results

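The genes described here are 50 replication licensing and S-phase genes, given as a list of gene symbols and grouped below by what their products do at the replication fork. All 50 were among the 33538 rows that carried plain gene symbols (the all-gene rows), and 14 of them were also among the 1253 rows of a targeted pan-cancer gene panel (the panel rows). The cells were of the established lobular breast carcinoma line MDA MB 134VI (MM134), with no engineered allele (genotype WT in the labels). Cultures deprived of hormone in charcoal-stripped serum received 100 nM estradiol or, as vehicle, 0.01% ethanol, each for 24 h, and single cells were then captured for 10x Genomics mRNA libraries. There was 1 mRNA library per treatment, so the cells of a treatment share a culture, a capture and a library, no difference between treatments could be tested, and no p-value is given.

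Before a cell can copy its DNA, the origin recognition complex and CDC6 bind origins and, with CDT1, load the MCM2-7 helicase, a step called licensing. At the start of S phase CDC45 and the GINS complex join the helicase, after which polymerases, the sliding clamp and its loaders, nucleotide synthesis and chromatin assembly act together at the fork. Many of these genes are classical targets of E2F transcription factors, and estradiol is known to drive hormone-deprived, estrogen receptor positive breast cancer cells out of G1 and into S phase.

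The stretches shown lie upstream of the annotated start of 8 members, over the 100 bases next to it for 7 of them and from position -160 to -61 for MCM6. They were chosen because they carry E2F-type letters and because the genes recur in the results below. RefSeq promoter windows (build GRCh38.p14) matched 42 of the 50 members. The letters TTTGGCGC, TTTCGCGC, TTTCCCGC and TTTGGCGG were searched on both strands in the 250 bases before each start, and matches may overlap. At least 1 match was found for 23 of the 42 members (54.8%), against 3.47% of all 27305 genes in the table and 2.83% of its 35116 windows. Base composition was not matched between members and other genes. The letters CCAAT, searched the same way, were found for 29 of 42 members (69.0%) and for 37.0% of all genes. The consensus palindrome of an estrogen response element, the letters GGTCA and TGACC with any 3 bases between them, was found for 0 of 42 members and for 0.0513% of all genes. With only 14 of 27305 genes matched in these 250 bases, the 0 cannot show whether the members differ from other genes. In the sequences capitals mark the E2F-type letters, the reading is 5′ to 3′ on the gene's own strand, and position -1 is the base before the start. The stretches are, for CDC6, chr17:40287779-40287878 on the plus strand, for CDT1 chr16:88803689-88803788 on the plus strand, for MCM6 chr2:135876504-135876603 on the minus strand and for MCM7 chr7:100101398-100101497 on the minus strand. Those of TYMS (chr18:657553-657652, plus strand), HELLS (chr10:94545688-94545787, plus strand), DTL (chr1:212035648-212035747, plus strand) and CDC25A (chr3:48188418-48188517, minus strand) follow them.
CDC6: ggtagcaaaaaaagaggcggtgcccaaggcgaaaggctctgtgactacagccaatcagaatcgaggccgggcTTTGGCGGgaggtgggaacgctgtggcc
CDT1: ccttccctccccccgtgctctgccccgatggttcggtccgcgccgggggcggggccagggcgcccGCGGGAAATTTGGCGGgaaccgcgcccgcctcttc
MCM6: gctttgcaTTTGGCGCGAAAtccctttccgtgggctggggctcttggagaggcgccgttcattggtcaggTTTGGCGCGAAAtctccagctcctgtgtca
MCM7: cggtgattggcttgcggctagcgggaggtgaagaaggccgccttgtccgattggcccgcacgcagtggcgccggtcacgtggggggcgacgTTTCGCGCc
TYMS: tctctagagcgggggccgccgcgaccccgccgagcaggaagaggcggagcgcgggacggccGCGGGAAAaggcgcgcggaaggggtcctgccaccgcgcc
HELLS: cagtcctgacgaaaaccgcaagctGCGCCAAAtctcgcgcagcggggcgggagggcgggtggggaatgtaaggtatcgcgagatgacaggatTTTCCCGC
DTL: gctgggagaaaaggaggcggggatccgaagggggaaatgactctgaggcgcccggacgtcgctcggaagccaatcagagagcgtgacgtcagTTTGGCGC
CDC25A: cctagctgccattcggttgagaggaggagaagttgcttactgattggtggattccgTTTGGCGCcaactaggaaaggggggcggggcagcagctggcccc
The CDC6 match lay at positions -28 to -21 and that of CDC25A at -44 to -37, while CDT1 had matches at -35 to -28 and -27 to -20. MCM6 held overlapping matches on opposite strands at -152 to -141, and another such pair at -90 to -79. The stretch of DTL ended in its match, at -8 to -1, and HELLS had matches at -76 to -69 and -8 to -1. The median log2 ratio of estradiol to vehicle, described next, was 0.50 over the 23 members with such letters (0.07 to 0.87) and 0.39 over the 19 members without them (0.03 to 1.07), so the ranges overlapped widely.

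The estradiol library held 3367 cells with 10352943 unique molecular identifiers (UMIs) in the panel block and 5937422 in the all-gene block, and the vehicle library 4940 cells with 14080930 and 6918198. The median cell had 2676 panel and 1561 all-gene UMIs with estradiol, against 2426.5 and 1199 with vehicle. Of the cell barcodes, 4 occurred in both libraries. Luminal markers were all detected (7 of 7, summed level 6955 CPM, as defined below, with estradiol and 5697 CPM with vehicle in the all-gene rows). There KRT8, KRT18 and KRT19 were higher with estradiol, GATA3, FOXA1 and EPCAM were lower, and ESR1 differed little. The 4 luminal genes on the panel summed to 19006 CPM with estradiol and 21639 CPM with vehicle. Basal or myoepithelial markers were at 0 in 5 of 5 cases in the all-gene rows, while TP63 had 13 UMIs with estradiol and 25 with vehicle in the panel rows. In the all-gene rows immune markers were at 0 for 3 of 4 genes, endothelial markers for 2 of 3 and mesenchymal markers for 3 of 5, the last with a summed level of 140.1 CPM with estradiol and 184 CPM with vehicle. On the panel PTPRC had 0 UMIs with estradiol and 3 with vehicle, PDGFRB 3 and 6, and COL1A2 and COL3A1 were at 0. COL1A1 had 280 CPM with estradiol and 393 CPM with vehicle there. CDH1, the adhesion gene typically lost in lobular carcinoma, had 10.3 CPM with estradiol and 10.1 CPM with vehicle in the all-gene rows, and 140.6 CPM and 147.5 CPM in the panel rows. By the deposited phase calls, the estradiol library held 1163 G1, 977 S and 1227 G2M cells and the vehicle library 2493 G1, 773 S and 1674 G2M cells.

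Replication genes were higher in the estradiol library as a group. A level below is the number of UMIs of a gene per 1000000 UMIs of the same library and row type (CPM), and a log2 ratio divides the level with estradiol by the level with vehicle. Intervals are exact 95% intervals for counting error alone; how much cultures or cells vary is not in them. All 14 members in the panel rows had a ratio above 1, with a median log2 ratio of 0.42, and 11 were at least 25% higher. Of all 940 panel genes with at least 50 UMIs over both libraries, 11.5% were 25% or more above vehicle and 26.2% were 20% or more below it. In the all-gene rows all 50 members reached 50 UMIs, all 50 had a ratio above 1, and the median log2 ratio was 0.47, from 0.03 to 1.07. There, 40 of the 50 were at least 25% higher and 0 at least 20% lower, beside 13.7% and 18.2% of all 10977 genes at the minimum, and 15 were at least 1.5-fold higher, beside 3.82% of all genes. On the panel 2 members were at least 1.5-fold higher, beside 3.3% of panel genes. The interval lay wholly above a ratio of 1 for 44 members, and reached it for ORC6, GINS3, PRIM1, SLBP, RAD51AP1 and UBR7. The share of all genes with such an interval was not computed. Of all genes at the minimum, 36.7% had a ratio above 1 in the panel rows and 45.6% in the all-gene rows. The median log2 ratios over those genes were -0.11 (panel) and -0.03 (all-gene). A median-of-ratios scaling sets those to 0 and puts the members' medians at 0.53 and 0.50.

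The mix of phases differed between the libraries. With equal weight given to G1, S and G2M cells, the members' median log2 ratio was 0.14 on the panel and 0.16 among the all-gene values, against -0.10 and -0.03 over all genes. At least 25% higher were then 2 of the 14 panel members, beside 8.51% of all panel genes, and 9 of the 50 all-gene members, beside 12.6% of all genes, shares little above those of all genes. All 14 panel members and 43 of the 50 all-gene members still had a ratio above 1. The share of all genes above a ratio of 1 was not computed with these weights, nor after the thinning below. The phase calls may rest on the member genes, as described below, so the weighted ratios are not free of the calls. Thinning each cell to 800 UMIs of its row type left all 14 panel members above a ratio of 1 and 12 at least 25% higher, beside 12.8% of panel genes. In the all-gene rows it left 48 members at the minimum, 45 of them above a ratio of 1 and 30 at least 25% higher, beside 15.1% of all genes. That thinning dropped more vehicle than estradiol cells, keeping 3228 of 3367 with estradiol and 3989 of 4940 with vehicle, and 1083 of 1163 and 1749 of 2493 of those in G1. The 14 panel members had 11.3 to 28.9 times as many UMIs in panel rows as in all-gene rows, and all 14 had the same direction in both. Panel and all-gene values come from the same cells and are not independent.

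**Figure D1:**
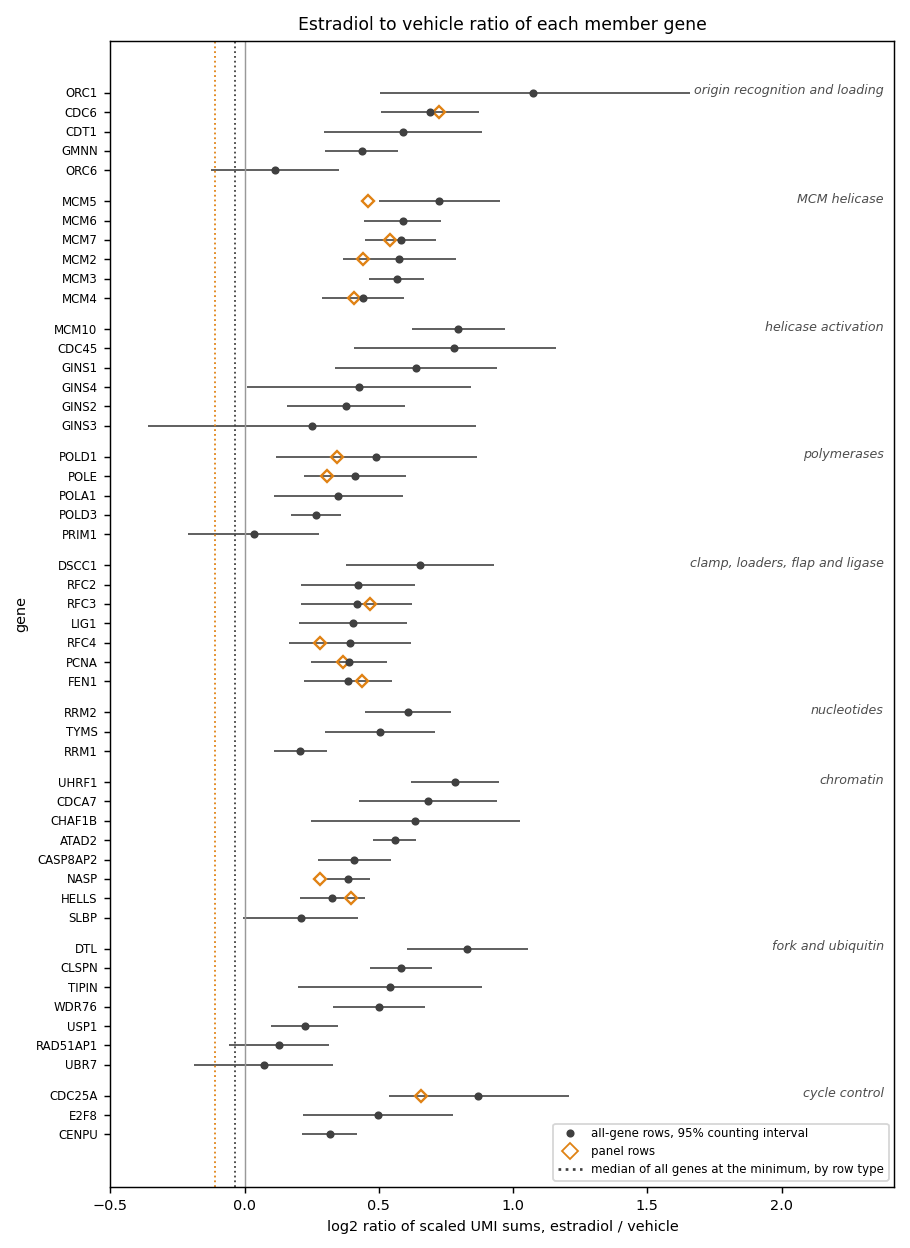
Log2 ratio of the level with estradiol to the level with vehicle (x axis) for each of the 50 members (y axis, grouped by role), as points with 95% counting intervals for the all-gene rows and open diamonds for the 14 members of the panel rows; dotted lines mark the median of all genes at the minimum. All 50 points and all 14 diamonds lie above 0, from PRIM1 at 0.03 to ORC1 at 1.07.

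Among the origin recognition and loading genes, CDC6, the ATPase that works with the origin recognition complex to load the helicase, had 1107 CPM with estradiol (11461 UMIs) and 670.4 CPM with vehicle (9440 UMIs) in the panel rows. Its log2 ratio was 0.72 (0.68 to 0.76), rank 18 from the top among the 940 panel genes, and in the all-gene rows it was 0.69 (0.51 to 0.87), at 99.4 CPM with estradiol against 61.6 CPM with vehicle. ORC1, the largest subunit of the origin recognition complex, had the highest all-gene ratio of any member at 1.07 (0.50 to 1.66), but rested on 74 UMIs with estradiol and 41 with vehicle, or 12.5 CPM and 5.93 CPM. CDT1, which brings the helicase to the origin, had 37.4 CPM with estradiol and 24.9 CPM with vehicle (0.59, 0.29 to 0.88). Geminin (GMNN), the inhibitor of CDT1, was higher as well, at 162 CPM with estradiol and 119.7 CPM with vehicle, a log2 ratio of 0.44 (0.30 to 0.57). ORC6, another subunit of the recognition complex, had 48.0 CPM with estradiol and 44.4 CPM with vehicle, and its interval reached both sides of a ratio of 1 (0.11, -0.12 to 0.35).

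All 6 subunits of the MCM2-7 helicase were higher with estradiol, with all-gene log2 ratios from 0.44 to 0.72 and a median of 0.58. MCM7 had 1988 CPM with estradiol and 1366 CPM with vehicle in the panel rows, a log2 ratio of 0.54 (0.51 to 0.57). MCM5 had 801 CPM with estradiol and 582 CPM with vehicle (0.46, 0.42 to 0.50), and MCM2 had 843 CPM with estradiol and 620.3 CPM with vehicle (0.44, 0.40 to 0.49). For MCM4 the levels were 1034 CPM with estradiol and 779 CPM with vehicle (0.41, 0.37 to 0.45). The 4 subunits on the panel thus lay within a narrow band, and the 4 ratios ordered MCM7, MCM5, MCM2, MCM4, with MCM5, MCM2 and MCM4 not apart beyond their intervals. MCM5 led the all-gene rows with 67.4 CPM with estradiol and 40.8 CPM with vehicle (0.72, 0.50 to 0.95), followed by MCM6 with 153 CPM and 102 CPM (0.59, 0.45 to 0.73) and MCM7 with 179 CPM and 119.5 CPM (0.58, 0.45 to 0.71). MCM4 was the lowest at 129.5 CPM with estradiol and 95.4 CPM with vehicle (0.44, 0.29 to 0.59).

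The genes that turn the loaded helicase into a moving one were measured in the all-gene rows only, and 5 of 6 were at least 25% higher with estradiol. MCM10, which is needed for that activation, had 116 CPM with estradiol and 66.9 CPM with vehicle (0.80, 0.62 to 0.97). CDC45, a component of the active helicase, had 25.1 CPM with estradiol and 14.6 CPM with vehicle (0.78, 0.41 to 1.16). GINS1 had 36.2 CPM with estradiol and 23.3 CPM with vehicle (0.64, 0.34 to 0.94). The other GINS subunits, which join the helicase together with GINS1, ranged lower: GINS4 was at 0.42 and GINS2 at 0.38. GINS3 was counted 48 times with estradiol and 47 times with vehicle, too few to place it (0.25, -0.36 to 0.86).

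For the replicative polymerases the all-gene median was 0.35, and 3 of 5 genes were at least 25% higher. POLD1, the catalytic subunit of polymerase delta, had 333 CPM with estradiol and 262 CPM with vehicle in the panel rows (0.35, 0.28 to 0.41). POLE, the catalytic subunit of polymerase epsilon, had 880.3 CPM with estradiol and 712 CPM with vehicle (0.31, 0.27 to 0.35). For the all-gene rows, POLD1 had 22.7 CPM with estradiol and 16.2 CPM with vehicle (0.49, 0.12 to 0.87) and POLE 82.0 CPM and 61.7 CPM (0.41, 0.22 to 0.60). POLA1, the catalytic subunit of polymerase alpha, had 51.4 CPM with estradiol and 40.3 CPM with vehicle (0.35, 0.11 to 0.59), and POLD3, an accessory subunit of polymerase delta, was at 0.27. PRIM1, the primase subunit that makes the RNA primer, had the smallest ratio of all 50 members, at 43.8 CPM with estradiol and 42.8 CPM with vehicle (0.03, -0.21 to 0.28).

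All 7 genes of the clamp, its loaders and Okazaki fragment processing were at least 25% higher with estradiol in the all-gene rows. PCNA, the sliding clamp, had 860.3 CPM with estradiol and 668 CPM with vehicle in the panel rows (0.37, 0.32 to 0.41). The clamp loader subunit RFC3 had 727 CPM with estradiol and 527 CPM with vehicle (0.47, 0.42 to 0.51), and RFC4 had 687 CPM and 565 CPM (0.28, 0.24 to 0.33). Flap endonuclease FEN1, which trims Okazaki fragments, had 1465 CPM with estradiol and 1081 CPM with vehicle (0.44, 0.41 to 0.47). RFC3 and RFC4 belong to the same complex, yet their panel intervals, which cover counting error alone, did not overlap. In the all-gene rows they lay close together, RFC3 at 0.42 (0.21 to 0.62) and RFC4 at 0.39 (0.16 to 0.62). DSCC1, part of an alternative clamp loader, led the all-gene rows with 43.6 CPM with estradiol and 27.8 CPM with vehicle (0.65, 0.38 to 0.93). RFC2 followed with 66.2 CPM with estradiol and 49.4 CPM with vehicle (0.42, 0.21 to 0.63), then RFC3 with 70.2 CPM and 52.6 CPM (0.42, 0.21 to 0.62). The remaining 4, DNA ligase LIG1 among them, lay between 0.39 and 0.40, with FEN1 lowest at 111 CPM with estradiol and 84.8 CPM with vehicle.

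For nucleotide supply, RRM2, the S-phase subunit of ribonucleotide reductase, had 124 CPM with estradiol and 81.4 CPM with vehicle (0.61, 0.45 to 0.77). Its partner RRM1, the large catalytic subunit, had 279 CPM with estradiol and 242 CPM with vehicle, a ratio that was smaller beyond the intervals (0.21, 0.11 to 0.31). Thymidylate synthase (TYMS), which makes dTMP, had 74.6 CPM with estradiol and 52.6 CPM with vehicle (0.50, 0.30 to 0.71).

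Chromatin genes that act behind the fork were led by UHRF1, which reads hemimethylated DNA and recruits the maintenance methyltransferase, at 128 CPM with estradiol and 74.3 CPM with vehicle (0.78, 0.62 to 0.95). CDCA7, a partner of the remodeller HELLS, had 51.0 CPM with estradiol and 31.8 CPM with vehicle (0.68, 0.43 to 0.94). CHAF1B, a subunit of the chromatin assembly factor CAF-1, had 22.2 CPM with estradiol and 14.3 CPM with vehicle (0.64, 0.25 to 1.03). HELLS itself had 2378 CPM with estradiol and 1809 CPM with vehicle in the panel rows (0.39, 0.37 to 0.42). The histone chaperone NASP had 4933 CPM with estradiol and 4057 CPM with vehicle (0.28, 0.27 to 0.30), the narrowest interval of any panel member and the smallest panel ratio together with RFC4. SLBP, which binds the stem-loop of histone mRNAs, was lowest in the all-gene rows at 61.1 CPM with estradiol and 52.9 CPM with vehicle (0.21, -0.0048 to 0.42). The bromodomain ATPase ATAD2 (0.56) and CASP8AP2, a factor of histone mRNA processing (0.41), lay between.

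DTL, the adaptor through which a ubiquitin ligase destroys CDT1 on replicating DNA, had 69.9 CPM with estradiol and 39.3 CPM with vehicle (0.83, 0.61 to 1.06). The checkpoint mediator claspin (CLSPN) had 231 CPM with estradiol and 154 CPM with vehicle (0.58, 0.47 to 0.70), and the fork protection factor TIPIN had 27.1 CPM and 18.6 CPM (0.54, 0.20 to 0.89). WDR76 was at 0.50, and USP1, which removes ubiquitin from PCNA, at 0.22. RAD51AP1 was at 0.13, and UBR7 had 40.3 CPM with estradiol and 38.3 CPM with vehicle (0.07, -0.19 to 0.33), both with intervals that reached a ratio of 1. CDC25A, the phosphatase that activates cyclin-dependent kinase at the entry into S phase, had 368 CPM with estradiol and 233 CPM with vehicle in the panel rows (0.66, 0.59 to 0.72) and 32.5 CPM and 17.8 CPM in the all-gene rows (0.87, 0.54 to 1.21). E2F8, an atypical E2F that represses E2F targets, had 39.7 CPM with estradiol and 28.2 CPM with vehicle (0.50, 0.22 to 0.78). The centromere protein gene CENPU had 265 CPM with estradiol and 213 CPM with vehicle (0.32, 0.21 to 0.42).

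Other genes of the replication pathway were read from a list of 52, none of them a member. Of these 52 further replication genes, 51 reached 50 UMIs in the all-gene rows, where 41 had a ratio above 1. The threshold of 25% higher was passed by 20 of the 51 and that of 20% lower by 3, beside the 13.7% and 18.2% of all genes, and their median log2 ratio was 0.25. Of the 18 measured in the panel rows, 14 had a ratio above 1, 8 passed the upper threshold and 1 the lower, beside the 11.5% and 26.2% of panel genes, and the median was 0.32. The all-gene ratios farthest from 1 were those of RNASEH2A, the catalytic subunit of ribonuclease H2, with 32.7 CPM with estradiol and 16.0 CPM with vehicle (1.03, 0.68 to 1.38), and of POLA2, a subunit of polymerase alpha, with 17.9 CPM and 9.11 CPM (0.97, 0.51 to 1.44). The exonuclease EXO1 was at 0.73 and the transcription factor E2F1 at 0.68. On the panel E2F1 had 739.5 CPM with estradiol and 468 CPM with vehicle (0.66, 0.61 to 0.71), the polymerase epsilon subunit POLE2 was at 0.55 and the helicase BLM at 0.48. POLD4, a small subunit of polymerase delta, went the other way, with 1895 CPM with estradiol and 2871 CPM with vehicle (-0.60, -0.62 to -0.57), and was at -0.31 in the all-gene rows. The 3 genes past the lower threshold in the all-gene rows were MCM9 (-0.48), CCNA2 (-0.43) and TOP2A (-0.32). CCNA2 and TOP2A were also lower on the panel, at -0.30 and -0.27.

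Within each library the members had their highest level in cells called S. How the phases were called was not given in the sources used here; 35 of the 50 members belong to a widely used list for scoring S phase, so high levels in S cells may follow from the calls and are given as a description only. In the all-gene rows 49 members reached 50 UMIs over the S and G1 cells of the estradiol library and 48 in the vehicle library, and all of these were at least 1.5-fold higher in S than in G1 cells, beside 8.88% of all genes with estradiol and 9.88% with vehicle. In the panel rows this held for 14 of 14 in each library, beside 12.2% of panel genes with estradiol and 14.4% with vehicle. The median log2 ratio of S to G1 was 1.63 with estradiol and 2.12 with vehicle in all-gene rows, and 1.16 and 1.64 in panel rows. Members outside the scoring list gave 1.17 with estradiol and 1.62 with vehicle in the all-gene rows, and those on it 1.72 and 2.29.

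The genes differed in what followed S. RRM2 had 15.6, 232 and 132 CPM in G1, S and G2M cells with estradiol and 9.99, 232 and 101 CPM with vehicle, so it stayed far above its G1 level in G2M. E2F8 had 9.16, 70.2 and 42.2 CPM in those phases with estradiol and 4.0, 54.6 and 43.8 CPM with vehicle, and TYMS 19.4, 129 and 79.5 CPM with estradiol and 11.0, 124 and 69.8 CPM with vehicle. RAD51AP1 was nearly level between S and G2M with estradiol, at 108 and 99.4 CPM, but not with vehicle, at 152 and 94.3 CPM. For 2 helicase subunits, MCM5 and MCM2, the level in G2M was below that in G1. MCM5 had 720 CPM in G1, 1489 CPM in S and 390.2 CPM in G2M cells with estradiol, and 477 CPM, 1508 CPM and 356 CPM with vehicle, in the panel rows. MCM2 had 675 CPM, 1445 CPM and 560.0 CPM with estradiol and 487 CPM, 1478 CPM and 447 CPM with vehicle. These 2 were lower in G2M than in G1 in both libraries and both row types, with intervals clear of a ratio of 1 in the panel rows; in the all-gene rows that held for MCM5 with estradiol alone. The other panel members were lowest in G1, MCM7 and MCM4 among them. MCM7 had a log2 ratio of G2M to G1 of 0.17 (0.11 to 0.22) with estradiol and 0.52 (0.47 to 0.57) with vehicle in panel rows, and that of MCM4 was 0.06 (-0.01 to 0.14) and 0.13 (0.06 to 0.19). The all-gene values of MCM3 and MCM6 likewise exceeded their G1 level in G2M, at 0.20 and 0.14 with estradiol and 0.22 and 0.43 with vehicle, although the interval of MCM6 with estradiol reached a ratio of 1. In the all-gene rows of the estradiol library CDC6, CDCA7, ORC1 and TIPIN also had their lowest level in G2M, each by less than the counting interval, and in the vehicle library CDC6, CDCA7 and TIPIN did not. CDC6 was the clearest of these, with a log2 ratio of G2M to G1 of -0.16 in the estradiol library (-0.52 to 0.21) against 0.60 in the vehicle library (0.21 to 1.00). Its panel values were 0.01 with estradiol (-0.07 to 0.09) against 0.49 with vehicle (0.41 to 0.57).

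**Figure D2:**
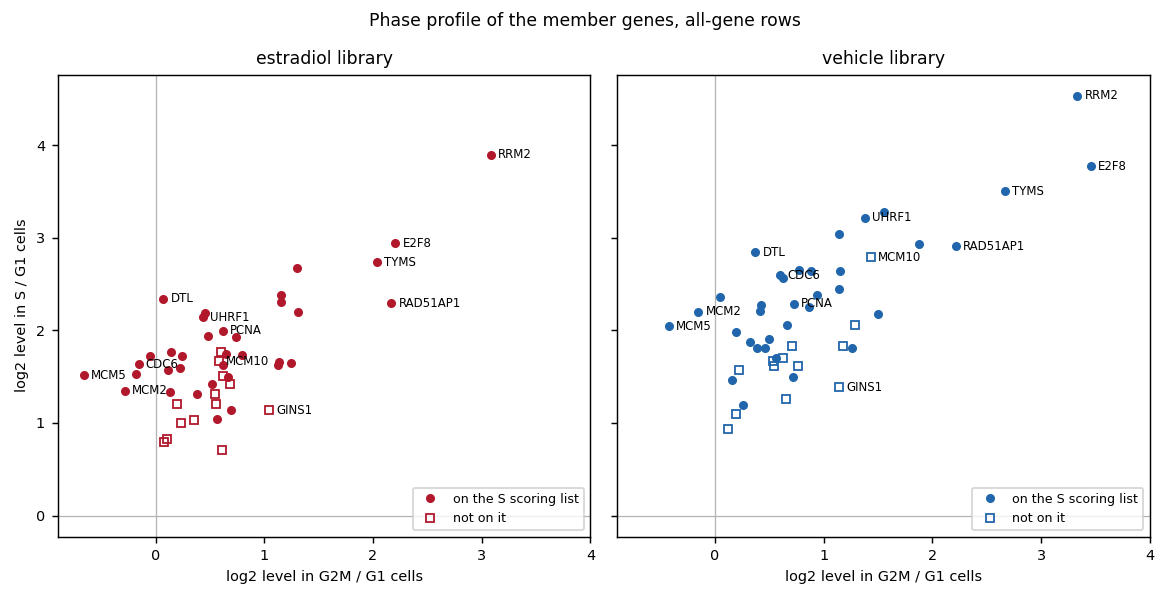
Log2 ratio of the level in S to that in G1 cells (y axis) against the log2 ratio of G2M to G1 cells (x axis) for each member in the all-gene rows, estradiol library on the left and vehicle library on the right; filled circles are members of the S scoring list and open squares the others. RRM2 sits at the upper right in both libraries, at 3.89 and 3.08 with estradiol and 4.53 and 3.33 with vehicle, and MCM5 and MCM2 lie left of 0.

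Between treatments the summed levels differed most in cells called G1 and less in those called G2M. The summed level of the 14 panel members in G1 cells was 12938 CPM with estradiol and 9283 CPM with vehicle (log2 ratio 0.48, 0.46 to 0.50). In S cells it was 29886 CPM with estradiol and 30629 CPM with vehicle (-0.04, -0.05 to -0.02), and in G2M cells 14756 CPM and 12665 CPM (0.22, 0.20 to 0.24). The all-gene sums over the 50 members were 3089 CPM with estradiol and 2233 CPM with vehicle in G1 (0.47), 9765 CPM and 9915 CPM in S (-0.02) and 4887 CPM and 4105 CPM in G2M (0.25). Over all cells the sums were 18404 CPM with estradiol and 13932 CPM with vehicle in panel rows (0.40, 0.39 to 0.41), and 5693 CPM and 4185 CPM in all-gene rows. Since the phase calls may rest on these genes, a ratio within a phase is not free of the calls, and the difference between phases was not tested.

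The G1 class was made up of different cells in the 2 libraries. By the deposited clusters, cluster 1 held 322 of 1163 G1 cells with estradiol (27.7%) and 146 of 2493 with vehicle (5.86%), and cluster 2 held 70 (6.02%) and 1078 (43.2%). G1 cells of cluster 1 had 20255 CPM of the panel members with estradiol and 22868 CPM with vehicle (-0.18), against 9609 CPM and 8146 CPM in those of cluster 2 (0.24). In the other clusters with at least 50 G1 cells per library the G1 log2 ratio ran from 0.21 in cluster 3 to 0.38 in cluster 6, so within none of the 6 did it reach the 0.48 of all G1 cells.

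**Figure D3:**
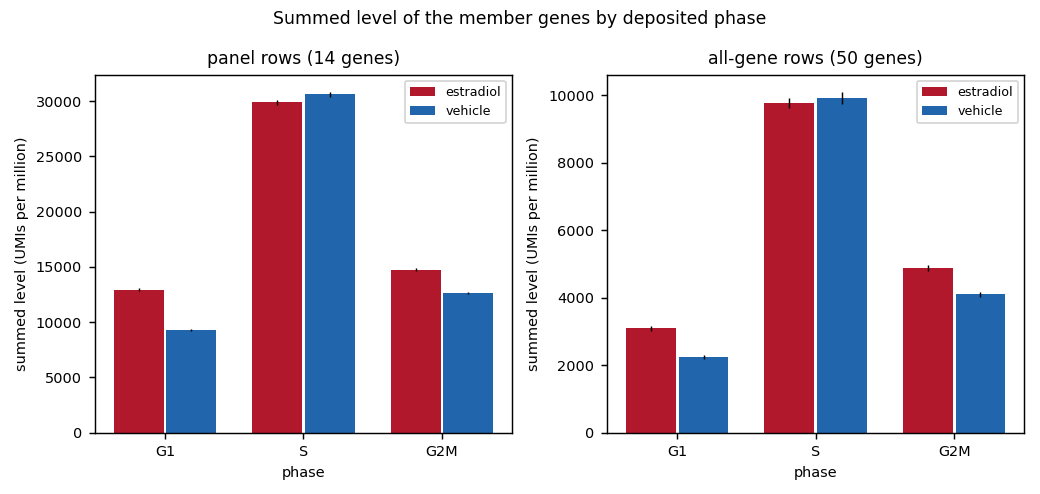
Summed level of the members in CPM (y axis) in cells of each deposited phase (x axis), with estradiol in red and vehicle in blue, for the 14 genes of the panel rows and the 50 genes of the all-gene rows; bars carry exact 95% Poisson intervals. In panel rows the G1 bars stand at 12938 with estradiol and 9283 with vehicle, and the S bars at 29886 with estradiol and 30629 with vehicle.

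In the panel rows single genes showed the same order. CDC6 in G1 cells had 737 CPM with estradiol and 378 CPM with vehicle in the panel rows, a log2 ratio of 0.97 (0.88 to 1.05). In S cells it had 2054 CPM with estradiol and 1889 CPM with vehicle (0.12, 0.06 to 0.18), and in G2M cells 743 CPM and 530.2 CPM (0.49, 0.42 to 0.56). CDC25A gave 0.83 in G1, 0.24 in S and 0.37 in G2M, and MCM7 0.74, 0.06 and 0.38; with CDC6 and RFC3 these were the panel members whose interval lay above a ratio of 1 in S. Below it in S lay HELLS at -0.13, PCNA at -0.15 and NASP at -0.08, all of which were above it in G1. The median log2 ratio of all panel genes in S cells was -0.09, so values this close to 0 depend on the scaling.

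Across the all-gene rows 43 of the 45 members at the minimum in G1 cells had a ratio above 1, with a median of 0.47 and 22 intervals wholly above. In S cells 26 of 49 did, with a median of 0.00, and in G2M cells 46 of 48, with a median of 0.30. Over all genes at the minimum the medians were -0.006 in G1, 0.007 in S and -0.04 in G2M cells. The shares of all genes above a ratio of 1, or with an interval clear of it, were not computed within phases. MCM10, UHRF1 and CDC6 had the highest G1 ratios among members at the minimum, at 1.32 (0.90 to 1.76), 1.27 (0.83 to 1.71) and 1.05 (0.65 to 1.46). MCM10 had 64.1 CPM with estradiol and 25.6 CPM with vehicle in G1 cells, and UHRF1 60.9 CPM and 25.3 CPM. In S cells CDC25A alone had an interval wholly above a ratio of 1 (log2 ratio 0.68, lower bound 0.13). It had 58.8 CPM with estradiol and 36.7 CPM with vehicle in S cells, and 17.2 and 11.3 CPM in G1 cells. In G2M cells it had 26.1 and 17.5 CPM, so unlike its panel ratio its all-gene ratio was not lowest in S. Intervals wholly below a ratio of 1 in S belonged to GMNN, HELLS, ORC6, PRIM1 and RAD51AP1, from -0.29 to -0.59. Over all cells ORC6, PRIM1 and RAD51AP1 were also among the 6 members whose interval reached a ratio of 1.

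**Figure D4:**
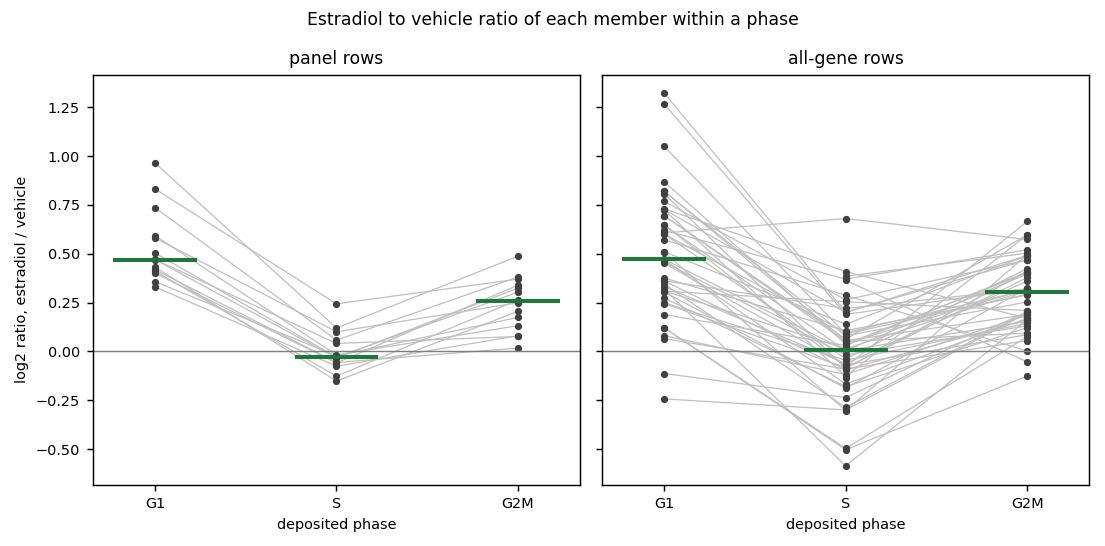
Log2 ratio of the level with estradiol to that with vehicle (y axis) within cells of each deposited phase (x axis), 1 point per member at the minimum, grey lines joining the points of a gene and green bars marking the medians; panel rows on the left, all-gene rows on the right. Medians are 0.47, -0.03 and 0.26 in G1, S and G2M for panel rows and 0.47, 0.00 and 0.30 for all-gene rows.

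The deposited annotation also divides the cells into 8 clusters. These were made from the same cells, so the levels across them are a description. Cluster 1 held 904 estradiol cells, 60.3% of them in S, and 600 vehicle cells, 69.8% of them in S, and it had the highest summed level, at 28123 CPM with estradiol and 31187 CPM with vehicle in panel rows. The share of all genes highest in a given cluster was not computed, so the counts of members have no background. Of the 14 panel members, 13 were highest in cluster 1 with estradiol and 14 with vehicle. In the all-gene rows cluster 1 was highest for 33 of 49 members with estradiol and 41 of 48 with vehicle. Cluster 0, in which 78.0% of estradiol cells and 81.7% of vehicle cells were in G2M, was highest for 13 and 7 members. Those 7, GINS1, PRIM1, TYMS, RRM1, RRM2, RAD51AP1 and E2F8, were also among the 13. RRM2 had 248 CPM in cluster 0 and 123 CPM in cluster 1 with estradiol, against 226 and 117 CPM with vehicle. MCM5 had 505 CPM in cluster 0 and 1481 CPM in cluster 1 with estradiol in panel rows, against 525 CPM and 1674 CPM with vehicle.

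The estradiol cells were spread differently over the clusters. Cluster 1 held 26.8% of them, against 12.1% of vehicle cells, cluster 2 held 2.44% against 23.3%, and cluster 6 held 2.35% against 12.7%. Clusters 2 and 6 consisted mostly of G1 cells. Their summed panel levels were 10222 CPM with estradiol and 8792 CPM with vehicle in cluster 2, and 10567 CPM and 8350 CPM in cluster 6. Clusters 4, 5 and 7 were lower than both in each library. With estradiol they had 8799, 9574 and 8217 CPM, and with vehicle 8042, 7980 and 7290 CPM. Of these, cluster 5 was also mostly G1 cells and held 10.8% of estradiol against 7.37% of vehicle cells. Within clusters the summed panel level gave log2 ratios of 0.02 in cluster 0, -0.15 in cluster 1, 0.22 in cluster 2, 0.30 in cluster 3, 0.13 in cluster 4, 0.26 in cluster 5, 0.34 in cluster 6 and 0.17 in cluster 7. In all-gene rows they ran from -0.12 in cluster 1 to 0.35 in cluster 2. With equal weight to each cluster the members' median log2 ratio was 0.11 in panel rows, with 0 of 14 genes at least 25% higher beside 8.4% of panel genes, and 0.11 in all-gene rows, with 7 of 50 beside 13.2% of all genes. Over all genes the medians were then -0.10 and -0.04. A ratio above 1 was kept by 13 of the 14 panel and 42 of the 50 all-gene members. The share of all genes above a ratio of 1 was not computed with these weights. Cluster 3 had the deepest cells, with median panel UMIs of 4828.5 with estradiol and 5724 with vehicle, and 18779 CPM with estradiol against 15244 CPM with vehicle.

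**Figure D5:**
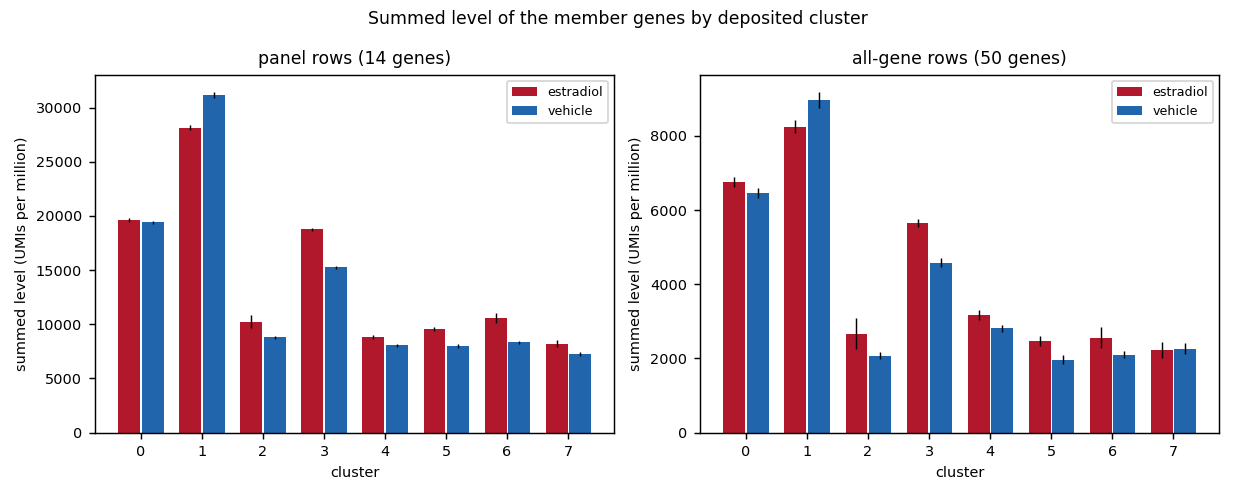
Summed level of the members in CPM (y axis) in each of the 8 deposited clusters (x axis), with estradiol in red and vehicle in blue, for panel rows on the left and all-gene rows on the right; bars carry exact 95% Poisson intervals. Cluster 1 is highest, at 28123 with estradiol against 31187 with vehicle in panel rows, while cluster 3 has 18779 with estradiol against 15244 with vehicle.

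A larger share of cells had a UMI of CDC6, CDC25A and NASP in the estradiol library. CDC6 and CDC25A had the highest panel ratios of the members. Shares of the other panel members and of panel genes at large are not given. The libraries also differed in phase mix, with 29.0% of estradiol and 15.6% of vehicle cells in S. Each cell was thinned to 800 panel UMIs to remove the difference in depth, which kept 3366 of 3367 estradiol cells and 4937 of 4940 vehicle cells. CDC6 was then found in 50.5% of estradiol cells (48.8 to 52.2, exact binomial interval) and 31.9% of vehicle cells (30.6 to 33.2). Before thinning the shares were 78.5% and 56.9%. Among G1 cells the thinned shares were 37.9% with estradiol and 20.4% with vehicle, among S cells 77.6% and 73.3%, and among G2M cells 40.9% and 30.0%. CDC25A was found in 23.7% of thinned estradiol cells and 14.4% of thinned vehicle cells (55.7% and 36.8% before thinning), and NASP in 91.5% and 86.0% (98.3% and 96.8% before). At least 5 UMIs of the 14 panel members were present in 88.5% of thinned estradiol cells and 73.3% of thinned vehicle cells (98.5% and 94.7% before). In G1 cells alone these shares were 78.7% with estradiol and 59.8% with vehicle (96.7% and 90.3% before). No cell type that lacks these genes was present to measure free RNA, so its part in the shares was not tested.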

How the data were processed

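The authors deposited natural log values, 1 column per cell, with a cell annotation that gives treatment, cluster, phase, UMI counts per row type and the mitochondrial percent. Undoing the natural log, taking off 1 and multiplying by the cell's total over 10000 gave whole counts within 1e-06 for 100% of values above 0. These added up to the totals the authors deposited in 100% of cells. The mitochondrial percent deposited by the authors served only as a description (median 7.62 with estradiol, 7.66 with vehicle). Per the submitters' processing notes the tools were UMI-tools 0.5.3, SAMtools, Cell Ranger 3.0.2, Bowtie2 2.3.2 and cutadapt 1.8.3, and the build hg38, without roles. How phases and clusters were made was not given in the sources used here.

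Counts were summed within a library and divided by its total in that row type (Python 3.11.15, numpy 2.4.6, scipy 1.17.1, pandas 2.3.3). Ratios carry exact Clopper-Pearson 95% intervals conditional on both counts, levels exact Poisson and shares exact binomial 95% intervals. These treat UMIs as independent and cover counting error only. Genes needed 50 UMIs over the groups compared, and 50 cells per library for a cluster or a phase within one. All cells were kept without doublet calling, and the ratio step was tested on simulated data. The repair libraries were not used here.

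The members and lists were chosen with earlier results of these data known. Every panel member is named, and in the all-gene rows the 3 largest and the smallest ratios of each role; values of the remaining members and the CCAAT and estrogen response element letters were added after their values were seen. Alternatives were other scalings, minimums of 20 and 200 UMIs, cell filters, thinning to 800 UMIs, equal weights to phases and, chosen after seeing the data, to clusters.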

Additional observations from a re-analysis of the deposited data

Results flagged for a closer look

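Some members had a ratio of estradiol to vehicle on opposite sides of 1 in G1 and in S cells, each with an interval clear of 1. The signs were the same after the median of all genes in the phase was subtracted, but intervals were not recomputed for those values. The difference between G1 and S cells was not tested, as there was 1 library per treatment. GMNN had a log2 ratio of 0.51 in G1 cells and -0.30 in S cells (all-gene rows). HELLS had 0.34 in G1 and -0.29 in S cells in the all-gene rows, and 0.41 and -0.13 in the panel rows. PCNA had 0.43 in G1 and -0.15 in S cells in the panel rows. Once the median was subtracted, the panel values in S cells were only -0.03 for HELLS and -0.06 for PCNA. NASP, at 0.33 and -0.08 in the panel rows, moved to 0.02 in S cells once the median was subtracted. The deposited phase calls may rest on HELLS, PCNA, GMNN and NASP, which are on the S scoring list, and their part in these values was not tested.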

How the results depend on the processing

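All 14 panel and all 50 all-gene members kept a ratio above 1 under the median-of-ratios scaling, under a total without the 10 most abundant genes, without the 5% of cells with most UMIs and as a mean over cells. The panel median of 0.42 became 0.53 and 0.49 under those scalings and 0.47 with cells thinned to 800 UMIs. In all-gene rows thinning gave 0.43 and 30 members at least 25% higher in place of 40; it took ORC1 and GINS3 below the minimum and turned ORC6 (-0.13), RAD51AP1 (-0.25) and UBR7 (-0.06). With equal weight to phases it was 0.14 with 2 genes at least 25% higher, against 0.16 with 9 genes in all-gene rows; with equal weight to clusters it was 0.11 with 0 genes, against 0.11 with 7. A fold of 1.5 left 2 panel and 15 all-gene members. Equal phase weights turned ORC6 (-0.15), PRIM1 (-0.31), RRM1 (-0.015), HELLS (-0.10), SLBP (-0.11), RAD51AP1 (-0.22) and UBR7 (-0.14). Equal cluster weights turned PCNA on the panel (-0.013) and, among all-gene values, CDT1 (-0.061), GINS2 (-0.0080), GINS4 (-0.18), PCNA (-0.11), RFC2 (-0.030), RRM1 (-0.11), HELLS (-0.011) and RAD51AP1 (-0.27). By construction these weights remove the difference in phase or cluster mix. Without the 10 most abundant genes the summed panel levels were 26104 CPM with estradiol and 18915 CPM with vehicle, and the all-gene ones 6526 CPM and 4841 CPM. The S to G1 median of members outside the scoring list was 1.17 with estradiol and 1.62 with vehicle. No paired analysis was possible because each treatment has 1 library. Under the alternatives the share of all genes above a ratio of 1 was not computed. Depth limits ORC1, GINS3 and the other all-gene members under about 100 UMIs a library.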

Other observations

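For MCM5 and NASP the panel ratio lay outside the all-gene interval: MCM5 was at 0.46 in panel rows and 0.72 (0.50 to 0.95) in all-gene rows, and NASP at 0.28 and 0.39 (0.31 to 0.47). For the other 12 members in both row types the panel value lay inside the all-gene interval.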
